A study of Mus musculus with 6 samples.

Results

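Immunoglobulin variable (V) segments were taken as all genes whose symbol begins with Ighv, Igkv or Iglv, which gave 348 of 55416 genes. They comprised 185 heavy-chain (Ighv) segments on chromosome 12, 160 kappa light-chain (Igkv) segments on chromosome 6 and 3 lambda light-chain (Iglv) segments on chromosome 16. The annotation called 216 of them functional V genes and 130 pseudogenes, and gave the other two a less common biotype. RNA was sequenced from CD3+ T cells of the spleen of wild-type C57BL/6 graft recipients, in 3 libraries from mice with an allograft (tissue of a genetically different donor) and 3 from mice with an isograft (tissue of a genetically identical donor). The cells of both groups had been kept in culture medium with serum and antibiotics before RNA extraction. Donor strain, grafted organ, time after grafting and culture time are not stated in the sources at hand. Whether each group's 3 libraries came from different mice is not stated in the labels either; the p-values refer to the spread between libraries, part of which may be technical.

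A V segment encodes most of the antigen-binding domain of an antibody chain. In a developing B cell, recombination joins 1 V segment of the heavy-chain locus to a D and a J segment, and 1 V segment of a light-chain locus to a J segment. The joined exon is then spliced to a constant exon (Ighm and Ighd for the IgM and IgD heavy chains, Igkc for kappa, Iglc genes for lambda). In the mouse most B cells carry a kappa light chain, and the lambda locus has few V segments. Mature T cells do not make antibody chains, so the source of these transcripts in a CD3+ fraction was examined only through marker genes, whose values stand beside the results.

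The V exons of 9 segments on which the results turn are printed first, from GENCODE M21 transcripts, 5′ to 3′ in the sense of transcription, up to the last 300 bases of each. Coordinates are those of the files' annotation, on GRCm39, and cover the whole gene with leader exon and intron. Iglv1 (chr16:18903767-18904250, minus strand) and Iglv2 (chr16:19079151-19079609, minus strand) are shown because their exons differ at 8 aligned bases, with 3 further bases at the start of Iglv1 (outside the stretch shown), over 305 aligned positions; capitals mark the bases unlike the other.

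Iglv1: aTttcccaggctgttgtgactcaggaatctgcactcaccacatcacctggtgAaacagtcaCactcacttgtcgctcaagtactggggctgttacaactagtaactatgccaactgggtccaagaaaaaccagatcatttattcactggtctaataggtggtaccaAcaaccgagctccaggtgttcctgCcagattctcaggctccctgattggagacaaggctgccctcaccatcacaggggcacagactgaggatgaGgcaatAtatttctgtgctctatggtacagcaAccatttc
Iglv2: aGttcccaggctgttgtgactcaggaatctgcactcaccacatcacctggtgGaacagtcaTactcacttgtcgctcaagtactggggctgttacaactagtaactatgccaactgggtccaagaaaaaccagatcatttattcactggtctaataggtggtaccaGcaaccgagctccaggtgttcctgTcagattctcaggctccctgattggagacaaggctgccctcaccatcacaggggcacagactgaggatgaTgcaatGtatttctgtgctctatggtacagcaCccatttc

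Iglv3 (chr16:19059957-19060440, minus strand) is shown as the lambda segment that fell. Ighv1-64 (chr12:115471165-115471651, minus strand) and Ighv1-80 (chr12:115875964-115876396, minus strand) carried the lowest p-values among the heavy segments that fell, and Ighv4-1 (chr12:113911902-113912416, minus strand) was a heavy segment of like level with no change past the threshold. Igkv10-96 (chr6:68608947-68609426, minus strand), Igkv19-93 (chr6:68713281-68713764, minus strand) and Igkv5-39 (chr6:69877408-69877961, minus strand) stand for the kappa segments that rose. Capitals run from the last in-frame tgt or tgc codon, that of the conserved cysteine ahead of the joining point, to the 3′ end of the germline exon.

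Iglv3: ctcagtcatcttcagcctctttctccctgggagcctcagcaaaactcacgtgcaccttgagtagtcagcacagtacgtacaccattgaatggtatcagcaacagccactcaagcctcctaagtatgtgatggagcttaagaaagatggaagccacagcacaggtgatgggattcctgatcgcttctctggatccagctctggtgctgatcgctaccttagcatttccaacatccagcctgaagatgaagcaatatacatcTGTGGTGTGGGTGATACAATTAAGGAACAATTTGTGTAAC
Ighv1-64: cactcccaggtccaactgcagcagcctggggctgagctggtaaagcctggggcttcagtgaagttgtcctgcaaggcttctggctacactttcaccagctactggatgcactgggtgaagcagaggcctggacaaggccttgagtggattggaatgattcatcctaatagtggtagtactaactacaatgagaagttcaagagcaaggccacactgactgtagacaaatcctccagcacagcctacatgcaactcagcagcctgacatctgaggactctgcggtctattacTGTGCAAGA
Ighv1-80: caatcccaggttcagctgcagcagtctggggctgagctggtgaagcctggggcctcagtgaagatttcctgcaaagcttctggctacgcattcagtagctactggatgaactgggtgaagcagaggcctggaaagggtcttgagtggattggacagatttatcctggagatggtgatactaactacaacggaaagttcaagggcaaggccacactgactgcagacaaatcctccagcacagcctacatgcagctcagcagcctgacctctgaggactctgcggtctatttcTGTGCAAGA
Ighv4-1: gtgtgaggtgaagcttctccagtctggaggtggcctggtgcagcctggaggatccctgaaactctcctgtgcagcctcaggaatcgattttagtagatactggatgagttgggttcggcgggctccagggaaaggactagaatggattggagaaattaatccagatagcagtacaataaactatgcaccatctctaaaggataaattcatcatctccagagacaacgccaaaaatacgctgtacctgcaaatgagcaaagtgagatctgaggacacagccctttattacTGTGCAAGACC
Igkv10-96: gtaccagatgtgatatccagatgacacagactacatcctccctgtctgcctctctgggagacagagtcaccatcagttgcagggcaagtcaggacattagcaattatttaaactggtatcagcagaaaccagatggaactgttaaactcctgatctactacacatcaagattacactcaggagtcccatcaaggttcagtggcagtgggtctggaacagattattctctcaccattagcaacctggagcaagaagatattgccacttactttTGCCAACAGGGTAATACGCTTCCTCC
Igkv19-93: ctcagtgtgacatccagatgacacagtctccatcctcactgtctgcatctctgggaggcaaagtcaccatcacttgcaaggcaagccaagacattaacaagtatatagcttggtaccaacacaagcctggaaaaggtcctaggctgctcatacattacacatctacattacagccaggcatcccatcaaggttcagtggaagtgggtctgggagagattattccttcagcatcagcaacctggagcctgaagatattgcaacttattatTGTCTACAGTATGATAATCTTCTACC
Igkv5-39: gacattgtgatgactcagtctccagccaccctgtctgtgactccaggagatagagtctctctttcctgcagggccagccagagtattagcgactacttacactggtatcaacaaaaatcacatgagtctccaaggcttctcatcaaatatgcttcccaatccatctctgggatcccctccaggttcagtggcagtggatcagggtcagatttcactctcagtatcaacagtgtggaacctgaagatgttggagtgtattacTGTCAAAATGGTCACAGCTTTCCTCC

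Iglv1 and Iglv2 were 96.4% identical over the V exon, whereas Iglv3 shared 54.0% with Iglv1 and 52.4% with Iglv2. Ighv1-64 and Ighv1-80 shared 88.5%, and Ighv4-1 shared 61.9% with Ighv1-64 and 63.2% with Ighv1-80. Among the kappa exons, Igkv10-96 and Igkv19-93 shared 77.2%, and Igkv5-39 shared 64.1% with Igkv10-96 and 63.9% with Igkv19-93. Over all 216 functional segments the exon nearest in sequence was a median 94.7% identical in the heavy locus and 93.1% in the kappa locus. A median 79.1% of the 50-base windows of a functional segment occurred in no other one. Reads that fall in shared windows map to several places and are left out by the counter's default, so counts of near-identical segments are uncertain and, since no strand option is recorded, sense and antisense reads are not told apart.

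V segments held 11057 to 12285 counts per allograft library and 12948 to 17860 per isograft library, which was 0.0360% to 0.0392% and 0.0430% to 0.0473% of the library totals. Totals ran from 30078504 to 34123777 counts in allograft libraries and from 30066137 to 37821738 in isograft libraries. The first principal component of all genes separated the groups and took up 73.8% of the variance. T cell identity genes were present: summed over 18 genes they stood at 2394 ± 111 CPM in allograft and 2776 ± 49.6 CPM in isograft libraries (SD, n = 3 each), where CPM is the count over the TMM-scaled library total on the usual CPM scale. B cell identity genes were present as well, at 4025 ± 205 CPM in allograft and 4090 ± 49.6 CPM in isograft libraries over 20 genes, all of them with counts.

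Heavy-chain and lambda V transcripts were lower in allograft than in isograft libraries, while kappa V transcripts were slightly higher after TMM scaling and level with total counts. Summed Ighv levels were 151.8, 155.6 and 152.5 CPM in the allograft libraries, against 193.2, 200.5 and 198.0 CPM in the isograft libraries. The ranges did not overlap, and the log2 ratio of the group means was -0.36. Summed Iglv levels were 16.8, 18.4 and 15.99 CPM in allograft and 24.9, 26.4 and 24.1 CPM in isograft libraries, a log2 ratio of -0.56 with every allograft library below every isograft library. Summed Igkv levels were 224.6, 248.8 and 224.3 CPM in allograft and 211.8, 213.2 and 181.3 CPM in isograft libraries. The kappa log2 ratio was 0.20 after TMM scaling and -0.02 with total counts alone, a scaling that moves the median log2 fold change of all genes tested by -0.22. A change of scaling multiplies each library by a single factor, so the 3 loci shift nearly alike and keep their order by construction. No test was made on these sums, and in a bulk sample fewer cells of a type and less RNA per cell cannot be told apart.

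**Figure D1:**
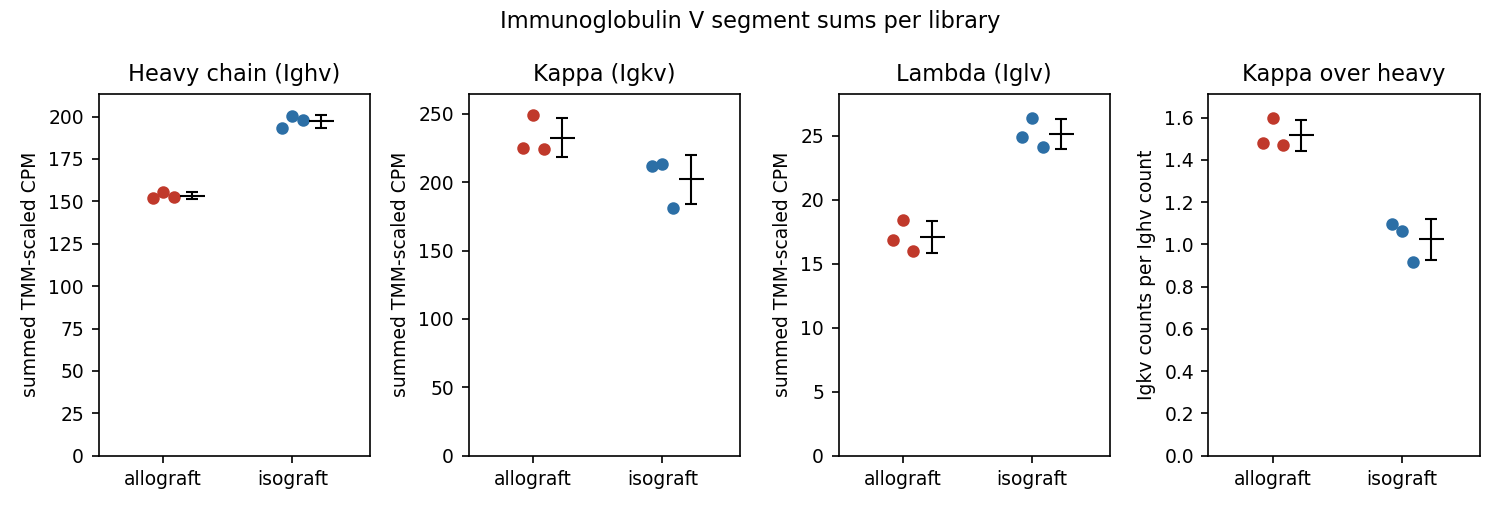
Summed TMM-scaled CPM of the Ighv, Igkv and Iglv segments and the number of Igkv counts per Ighv count, 1 point per library, with allograft libraries left of isograft libraries and a bar with whiskers for each group's mean ± SD. The heavy sums lie at 151.8 to 155.6 CPM in allograft and 193.2 to 200.5 CPM in isograft libraries, and the kappa sum, whose group difference turns from 0.20 to -0.02 on the log2 scale with total counts, is set against them in the ratio panel.

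Ratios of counts within a library do not depend on the scaling. Kappa V counts per heavy V count were 1.48, 1.599 and 1.47 in allograft libraries, against 1.10, 1.06 and 0.915 in isograft libraries. Kappa V counts per lambda V count were 13.3, 13.5 and 14.0 in allograft libraries, against 8.52, 8.07 and 7.52 in isograft libraries. Neither ratio overlapped between the groups, and both were higher in allograft libraries. Lambda V counts per heavy V count lay closer together, at 0.111, 0.118 and 0.105 in allograft and 0.129, 0.132 and 0.122 in isograft libraries, again without overlap.

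Among the constant genes to which these segments are spliced, those of IgM and IgD fell, that of kappa did not pass the test, and 1 of 3 lambda genes fell. Ighm, the IgM heavy chain, stood at 569.9, 534.3 and 547.7 CPM in allograft libraries and 929.9, 870.9 and 839.7 CPM in isograft libraries (log2 fold change -0.68 ± 0.07 SE, edgeR adjusted p = 6.6e-08). Ighd, the IgD heavy chain, averaged 188.1 ± 3.51 CPM in allograft and 242.2 ± 29.3 CPM in isograft libraries (SD, n = 3 each), and it fell by 0.36 on the log2 scale (edgeR adjusted p = 0.00069). Igkc, the kappa constant gene, averaged 284.4 ± 7.58 CPM in allograft and 285.2 ± 17.6 CPM in isograft libraries, with no change past the threshold (edgeR adjusted p = 0.97). Iglc2, the most abundant lambda constant gene, averaged 27.6 ± 1.42 CPM in allograft and 28.2 ± 5.72 CPM in isograft libraries, with groups that overlapped (log2 fold change -0.03, edgeR adjusted p = 0.83). Iglc1 did not pass either (log2 fold change -0.32, edgeR adjusted p = 0.096). Iglc3, the least abundant of the 3, averaged 3.75 ± 0.485 CPM in allograft and 6.23 ± 1.20 CPM in isograft libraries and fell by 0.74 on the log2 scale (edgeR adjusted p = 0.0019). Of the 13 immunoglobulin constant and J chain genes, all tested, 3 fell and 1 rose, beside 29.1% and 28.7% of all genes tested. Their median log2 fold change was -0.06. The gene that rose was Ighg1, of the IgG1 heavy chain, at 0.25 (edgeR adjusted p = 0.048).

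The V segments and their constant genes did not move by equal amounts. Ighv counts per count of Ighm and Ighd together were 0.201, 0.215 and 0.207 in allograft and 0.163, 0.177 and 0.189 in isograft libraries, without overlap. Igkv counts per Igkc count overlapped, at 0.779, 0.860 and 0.814 in allograft and 0.699, 0.796 and 0.636 in isograft libraries. Iglv counts per Iglc count were 0.432, 0.473 and 0.408 in allograft and 0.552, 0.510 and 0.685 in isograft libraries, without overlap. Igkc counts per count of Ighm and Ighd together were 0.382, 0.399 and 0.374 in allograft and 0.255, 0.237 and 0.272 in isograft libraries, so the higher kappa-to-heavy ratio was seen in constant genes too.

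Every member was accounted for. Counts were found on 248 of the 348 segments, 127 Ighv, 118 Igkv and 3 Iglv, and 100 had 0 counts in all 6 libraries. Of the 216 functional segments 205 had counts; the other 11 were Ighv5-12-4, Ighv7-2, Ighv16-1, Ighv6-4, Ighv1-16, Ighv1-24, Ighv1-62-1, Ighv8-9, Ighv8-13, Igkv8-26 and Igkv1-35. A median 65.5% of their 50-base windows were unique among functional segments. With sampling noise alone, 0 counts in all 6 libraries allow an expected total of roughly up to about 3 counts over them, without a set confidence level. The reason for the 0 counts was not tested. Pseudogenes held 713 of the 80650 V counts (0.884%), on 43 of 130 members. The filter on low counts left 158 segments for testing, 78 Ighv, 77 Igkv and 3 Iglv, which held 98.04% of the V counts, and the 190 not tested were 107 Ighv and 83 Igkv segments.

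Of the 158 segments tested, 7 rose and 16 fell at an adjusted p of 0.05 (edgeR's quasi-likelihood test, Benjamini-Hochberg over all 14926 genes tested), and 135 did not pass. Those are 4.43% and 10.1% of the segments, whereas 28.7% of all genes tested rose and 29.1% fell (57.8% in either direction). Among the 8485 genes in the level range of the tested segments, 19.2% rose and 27% fell (46.2% in either direction). Both shares lay below these backgrounds, beside wider errors: the median SE of the log2 fold change was 0.31 for the segments, 0.13 for all genes tested and 0.24 for genes of the same level range. The calls split by locus: the heavy locus had 0 rises and 15 falls of 78, the kappa locus 7 rises and 0 falls of 77, and the lambda locus 1 fall of 3. With total counts in place of TMM, 1 segment rose and 28 fell, and of all genes tested 2973 rose and 6093 fell, against 4283 and 4349 with TMM.

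The median log2 fold change was -0.34 over the tested heavy segments, 0.15 over the kappa segments and -0.19 over the 3 lambda segments, beside -0.01 over all genes tested and -0.11 over genes of the same level range. Of the heavy segments 71 had a value below 0 and 7 above, and of the kappa segments 54 had a value above 0 and 23 below. The 3 allograft libraries lay below all 3 isograft libraries for 24 of 78 heavy segments and above for 0, where 32.1% and 31.3% of all genes tested did so (63.3% in either direction). In the kappa locus they lay above for 9 of 77 and below for 1. The heavy share of non-overlapping segments below, 30.8%, was near that of all genes, while its counterpart above was 0.

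**Figure D2:**
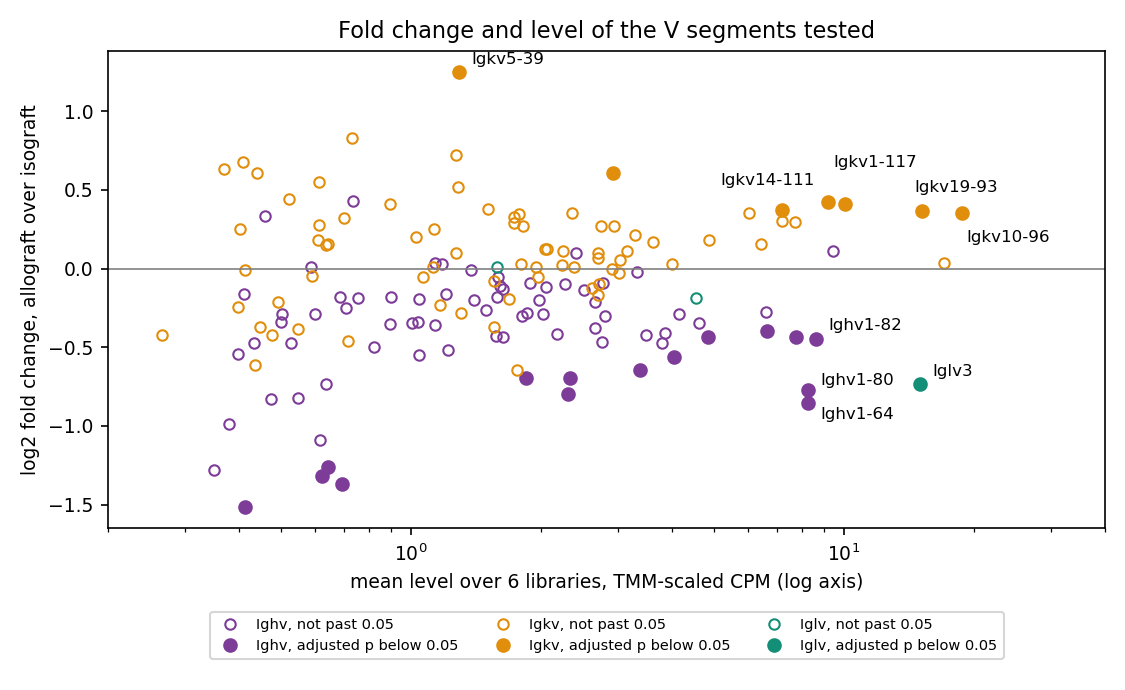
Log2 fold change (allograft over isograft) of the 158 segments tested against their mean level in TMM-scaled CPM on a log axis, coloured by locus with filled marks for those past an adjusted p of 0.05. The 15 heavy segments past the threshold all lie below 0 and the 7 kappa segments above it; with total counts 1 kappa segment remains above.

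Heavy segments that fell were led by members of the Ighv1 family, the largest of the mouse heavy locus. Ighv1-64 stood at 5.95, 5.03 and 6.64 CPM in allograft libraries, against 11.3, 10.0 and 10.6 CPM in isograft libraries (log2 fold change -0.85 ± 0.14 SE, edgeR adjusted p = 3.3e-05). Ighv1-80 stood at 6.08, 6.07 and 6.15 CPM in allograft libraries, against 8.85, 10.3 and 12.03 CPM in isograft libraries (log2 fold change -0.77 ± 0.14 SE, edgeR adjusted p = 0.00012). In both the groups lay well apart, and both calls held in all 15 alternative settings.

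Ighv1-82 stood at 7.94, 7.31 and 6.64 CPM in allograft and 8.10, 10.2 and 11.6 CPM in isograft libraries, where isograft replicate 1 came close to the allograft range (log2 fold change -0.45 ± 0.15 SE, edgeR adjusted p = 0.014). Ighv1-26 stood at 6.11, 6.995 and 6.68 CPM in allograft and 9.06, 7.81 and 9.88 CPM in isograft libraries (log2 fold change -0.43 ± 0.14 SE, edgeR adjusted p = 0.013). Both are Ighv1 members, and neither passed without isograft replicate 3 (edgeR adjusted p = 0.097 for Ighv1-82 and 0.069 for Ighv1-26). Ighv3-6, of a smaller family nearer the J segments, stood at 3.68, 4.55 and 4.16 CPM in allograft and 5.89, 5.27 and 5.58 CPM in isograft libraries (log2 fold change -0.43 ± 0.17 SE, edgeR adjusted p = 0.032). Its call was lost without allograft replicate 1, isograft replicate 1 or isograft replicate 3 (edgeR adjusted p = 0.10, 0.094 and 0.063), and with the replicate number as a block (0.054).

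Of the other 10 heavy segments that fell, 9 averaged under 5 CPM in isograft libraries. The log2 fold changes were -1.51 for Ighv1-4, -1.37 for Ighv3-8, -1.32 for Ighv1-5, -1.26 for Ighv1-59, -0.80 for Ighv14-2, -0.70 for Ighv1-18, -0.69 for Ighv1-75, -0.64 for Ighv10-3, -0.56 for Ighv10-1 and -0.39 for Ighv1-55. Ighv1-75 was the one whose groups overlapped. Ighv14-2, singled out after its values were seen because its call held in all 14 alternatives that tested it, stood at 1.51, 1.41 and 2.13 CPM in allograft and 2.99, 2.74 and 3.05 CPM in isograft libraries (edgeR adjusted p = 0.0080). Each of the other 9 lost its call without at least 1 of the 6 libraries. The count of 15 heavy segments that fell was 9 without isograft replicate 2 and 9 without isograft replicate 3.

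Ighv4-1, at 22.8 CPM per kilobase one of the heavy segments of highest level, was not among those that fell. It stood at 9.64, 9.61 and 10.2 CPM in allograft and 8.34, 10.3 and 8.57 CPM in isograft libraries, with groups that overlapped (log2 fold change 0.11 ± 0.13 SE, edgeR adjusted p = 0.49); with total counts the log2 fold change was -0.11. As a share of heavy V usage, counted per kilobase, it was 5.79% ± 0.23 in allograft and 4.15% ± 0.43 in isograft libraries (SD, n = 3 each), and it was the most used heavy segment in each allograft library. Ighv1-64 took the top place in isograft replicate 1 and Ighv1-80 in isograft replicates 2 and 3; their shares were 3.55% ± 0.52 and 4.25% ± 0.08 in allograft libraries, against 4.97% ± 0.38 and 5.61% ± 0.81 in isograft libraries. Ighv1-72 did not pass the test (6.88, 5.00 and 5.97 CPM in allograft, 8.04, 6.09 and 7.60 CPM in isograft libraries, edgeR adjusted p = 0.15), and its counts are uncertain, since 8.61% of its 50-base windows are unique and Ighv1-62-3 is 99.0% identical to it.

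Kappa segments that rose included some of those of highest level per length. Igkv10-96, the V segment of highest level at 52.1 CPM per kilobase, stood at 20.4, 22.8 and 19.8 CPM in allograft libraries, against 16.8, 18.4 and 14.1 CPM in isograft libraries (log2 fold change 0.35 ± 0.11 SE, edgeR adjusted p = 0.012). Igkv19-93, the sole member of its family, stood at 17.5, 18.9 and 14.9 CPM in allograft and 13.2, 14.2 and 12.4 CPM in isograft libraries (log2 fold change 0.37 ± 0.12 SE, edgeR adjusted p = 0.010). The groups did not overlap in either, and the nearest libraries of Igkv19-93 were 14.9 CPM in allograft replicate 3 and 14.2 CPM in isograft replicate 2.

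Igkv1-117 stood at 11.7, 13.1 and 9.66 CPM in allograft and 9.36, 8.40 and 8.19 CPM in isograft libraries (log2 fold change 0.41 ± 0.14 SE, edgeR adjusted p = 0.014). Igkv1-110, 96.8% identical to it, stood at 8.42, 8.99 and 6.93 CPM in allograft and 6.77, 5.47 and 6.605 CPM in isograft libraries (log2 fold change 0.37 ± 0.15 SE, edgeR adjusted p = 0.041). Igkv14-111 stood at 9.80, 10.0 and 11.9 CPM in allograft and 8.97, 9.04 and 5.48 CPM in isograft libraries, where isograft replicate 3 was the low one (log2 fold change 0.43 ± 0.17 SE, edgeR adjusted p = 0.039). All 3 kept their groups apart by narrow gaps.

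These 5 kappa rises were modest and depended on single libraries and on the scaling. With total counts their log2 fold changes were 0.13 for Igkv10-96, 0.14 for Igkv19-93, 0.20 for Igkv14-111, 0.19 for Igkv1-117 and 0.15 for Igkv1-110, and none of the 5 passed (edgeR adjusted p = 0.25 to 0.42). None of the 5 passed without allograft replicate 2 (edgeR adjusted p = 0.063 to 0.17) or without isograft replicate 3 (0.053 to 0.21). Igkv14-111 also lost its call without allograft replicate 3 (edgeR adjusted p = 0.15), Igkv1-117 without isograft replicate 2 (0.051), and Igkv1-110 without allograft replicate 1 or isograft replicate 2 (0.11 and 0.18). With the replicate block Igkv14-111 and Igkv1-110 did not pass (edgeR adjusted p = 0.059 and 0.072), nor did they with the 5 CPM filter (0.056 and 0.052), and Igkv1-110 was also lost with no low-count filter (0.073). The count of kappa rises was 1 without allograft replicate 2 and 2 without isograft replicate 3, against 7 with all libraries.

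Igkv5-39, named after its values were seen, was the kappa segment whose call held in all 14 alternatives that tested it. It stood at 2.37, 1.69 and 1.39 CPM in allograft libraries, against 0.785, 0.789 and 0.717 CPM in isograft libraries, so all 3 allograft libraries were clearly higher (log2 fold change 1.25 ± 0.32 SE, edgeR adjusted p = 0.0027). The seventh to rise was Igkv15-103, with a log2 fold change of 0.61 (edgeR adjusted p = 0.027). Its call was lost in 5 of 14 alternatives, with total counts and without allograft replicate 2, allograft replicate 3, isograft replicate 1 or isograft replicate 3, with a log2 fold change down to 0.39 and an edgeR adjusted p up to 0.15. Of the other highly used kappa segments, Igkv1-135 stood at 15.2, 17.3 and 19.1 CPM in allograft and 19.4, 15.8 and 15.3 CPM in isograft libraries, with full overlap (log2 fold change 0.04 ± 0.12 SE, edgeR adjusted p = 0.82).

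Among segments of at least 5 CPM, Igkv4-55 was the most uneven in both groups. It stood at 9.12, 11.3 and 5.04 CPM in allograft and 6.86, 8.77 and 5.08 CPM in isograft libraries (log2 fold change 0.30 ± 0.30 SE, edgeR adjusted p = 0.44), a coefficient of variation of 37.5% in allograft and 26.8% in isograft libraries. The medians over segments of at least 5 CPM were 13.1% in allograft (19 segments) and 11.8% in isograft libraries (20 segments). Without allograft replicate 3, its low allograft library, it passed the test (log2 fold change 0.55, edgeR adjusted p = 0.022). Igkv6-23 averaged 7.96 ± 0.956 CPM in allograft and 6.44 ± 1.10 CPM in isograft libraries (SD, n = 3 each), and it passed only without isograft replicate 2 (edgeR adjusted p = 0.039). Igkv6-17 averaged 5.19 ± 0.974 CPM in allograft and 4.57 ± 0.0113 CPM in isograft libraries, and its groups overlapped.

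**Figure D3:**
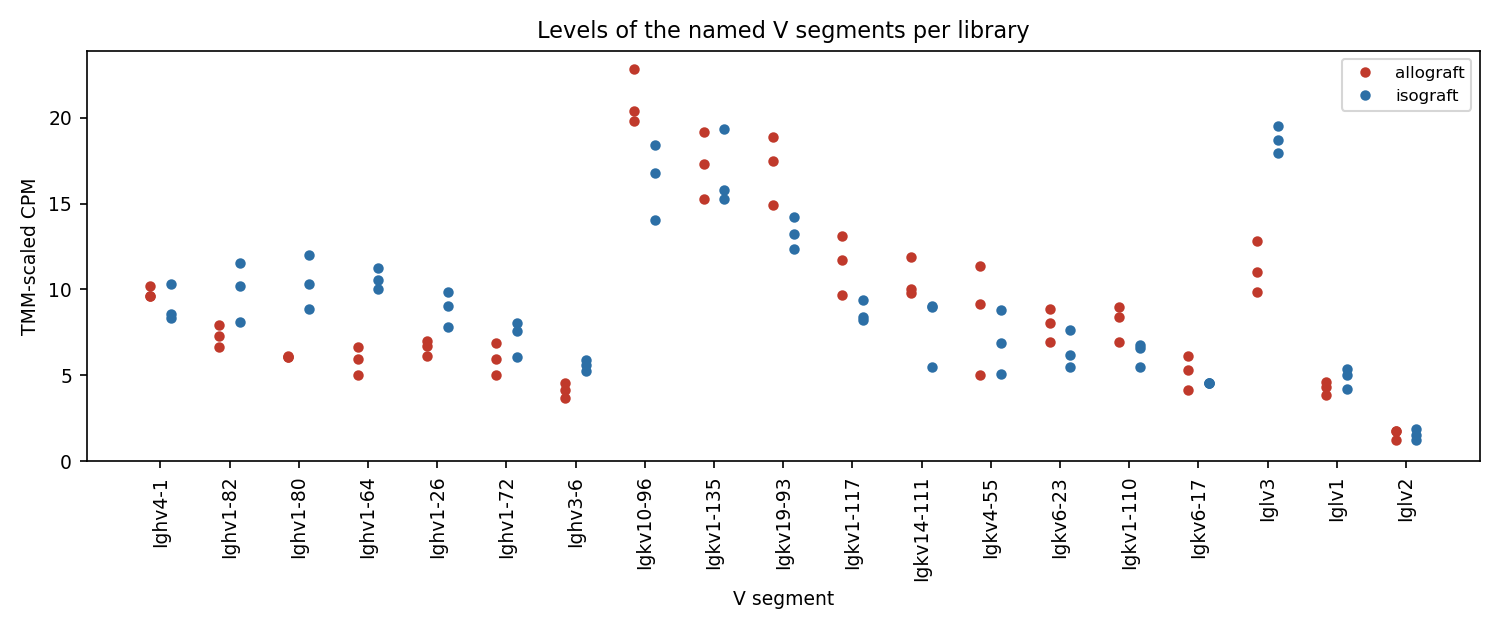
TMM-scaled CPM of the named V segments in each library, allograft points left of isograft points. Ighv1-64, Ighv1-80 and Iglv3 show wide gaps between the groups, the 5 kappa segments that rose show narrow ones (none passes with total counts), and Igkv4-55 spreads from 5.04 to 11.3 CPM among allograft libraries.

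The 3 lambda segments differed among themselves. Iglv3 (also known as Vx) stood at 11.01, 12.8 and 9.88 CPM in allograft libraries, against 17.9, 19.5 and 18.7 CPM in isograft libraries, a gap wider than either group's spread (log2 fold change -0.74 ± 0.12 SE, edgeR adjusted p = 1.8e-05). Its call held in all 15 alternative settings. Iglv1 stood at 4.61, 3.86 and 4.33 CPM in allograft and 5.01, 5.37 and 4.17 CPM in isograft libraries (log2 fold change -0.19 ± 0.18 SE, edgeR adjusted p = 0.38). Iglv2 stood at 1.22, 1.76 and 1.78 CPM in allograft and 1.90, 1.55 and 1.25 CPM in isograft libraries (log2 fold change 0.01 ± 0.29 SE, edgeR adjusted p = 0.98). Only Iglv3 passed the test, and the groups overlapped for the other two, the near-identical pair printed above.

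Within the lambda locus Iglv3 made up 65.7% ± 3.85 of usage in allograft and 74.7% ± 2.75 in isograft libraries (SD, n = 3 each). Iglv1 made up 24.6% ± 3.59 in allograft and 18.8% ± 1.66 in isograft libraries, and Iglv2 9.69% ± 2.03 and 6.50% ± 1.34. Iglv3 had 2.39, 3.32 and 2.28 counts per Iglv1 count in allograft libraries, against 3.58, 3.63 and 4.48 in isograft libraries. The ratio did not overlap between groups, but allograft replicate 2 came near isograft replicate 1. Per kilobase, Iglv3 was the lambda segment of highest level at 39.3 CPM, followed by Iglv1 at 11.7 and Iglv2 at 4.30.

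By family, the heavy difference was shared by several. Calls per family, heavy and kappa, stand beside 29.1% of all genes tested that fell and 28.7% that rose. Among genes in the level range of the tested segments these shares were 27% and 19.2%. Whether any family departed from them was not tested. The Ighv1 family, with 93 members, 39 tested and 10 that fell, summed to 81.9 ± 2.43 CPM in allograft and 111.1 ± 2.24 CPM in isograft libraries (SD, n = 3 each), a log2 ratio of -0.44. The Ighv10 family, in which both tested members fell, had a log2 ratio of -0.60, and the Ighv3 family, in which 2 of 3 fell, one of -0.52. The Ighv5 family had no member past the threshold among 8 tested, yet its sum was 13.1 ± 0.519 CPM in allograft and 16.7 ± 1.95 CPM in isograft libraries. In these 4 families every allograft sum lay below every isograft sum. The Ighv2, Ighv9 and Ighv14 sums overlapped, at log2 ratios of -0.20, -0.21 and -0.34, and Ighv4, which is mostly Ighv4-1, overlapped at 0.06 after TMM scaling and -0.16 with total counts.

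Among kappa families of at least 5 CPM, the Igkv5, Igkv10, Igkv14, Igkv19 and Igkv6 sums were higher in every allograft library, at log2 ratios of 0.38, 0.33, 0.37, 0.37 and 0.21. With total counts the first 4 ratios were 0.15, 0.11, 0.14 and 0.14 and that of Igkv6 was -0.01, and the groups overlapped in all 5 families. The sums of the Igkv4 family, the largest with 33 members and 19 tested, overlapped at 29.7 ± 4.0003 CPM in allograft and 27.6 ± 4.09 CPM in isograft libraries, and none of its members passed. Igkv3, with 8 members tested and none past the threshold, had a log2 ratio of -0.00 and also overlapped. Igkv1, the kappa family of highest sum, held 2 segments that rose, yet its sums overlapped. They were 41.7 ± 2.41 CPM in allograft and 36.0 ± 3.69 CPM in isograft libraries. Its log2 ratio was 0.21 after TMM scaling and -0.01 with total counts. The Igkv8, Igkv9 and Igkv12 sums overlapped as well.

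**Figure D4:**
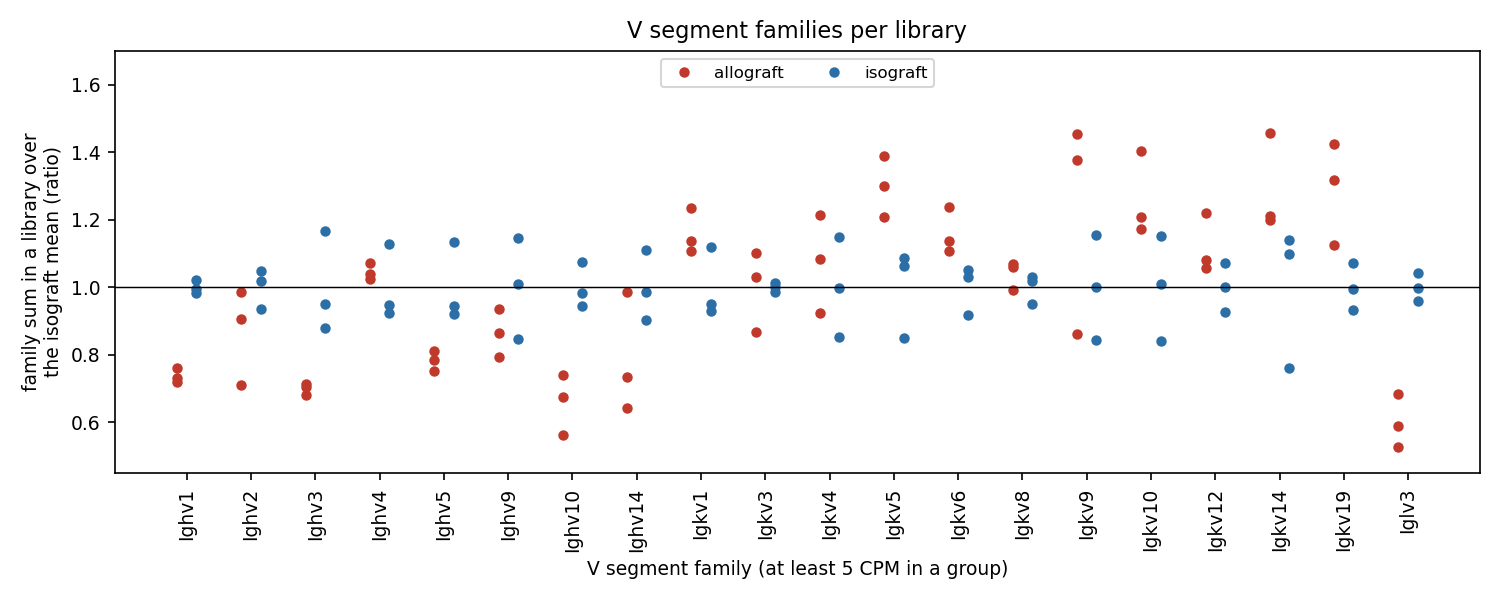
Family sums in each library divided by the isograft mean of that family, for families of at least 5 CPM, allograft points left of isograft points. In every allograft library Ighv1, Ighv3, Ighv5 and Ighv10 lie below all isograft libraries. Igkv5, Igkv10, Igkv14 and Igkv19 lie above all isograft libraries after TMM scaling. With total counts their groups overlap, at log2 ratios of the group means of 0.11 to 0.15.

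Position along the locus was examined because the heavy and kappa loci order their segments by distance from the J segments. The 78 heavy segments tested were divided in that order into 3 stretches of 26. Sums of the J-proximal stretch had a log2 ratio of -0.22, those of the middle stretch -0.41 and those of the J-distal stretch -0.44, with 1, 8 and 6 falls. All 3 stretches lay below in every allograft library. In the kappa locus the J-proximal and middle stretches of 26 had log2 ratios of 0.15 and 0.14, with 1 and 0 rises, and the J-distal stretch of 25 had 0.26 with 6 rises; the middle sums overlapped. These counts, and those by orientation below, stand beside 29.1% of all genes tested that fell and 28.7% that rose. The J-distal kappa stretch also had the highest kappa sums, at 117.7 ± 6.89 CPM in allograft and 98.1 ± 10.9 CPM in isograft libraries (SD, n = 3 each). No test of a difference between stretches was made, nor of their calls against those shares. Of the kappa segments, 30 lie in the same orientation as Igkc, with a median log2 fold change of 0.08 and 4 rises, and 47 lie opposite, with a median of 0.16 and 3 rises.

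**Figure D5:**
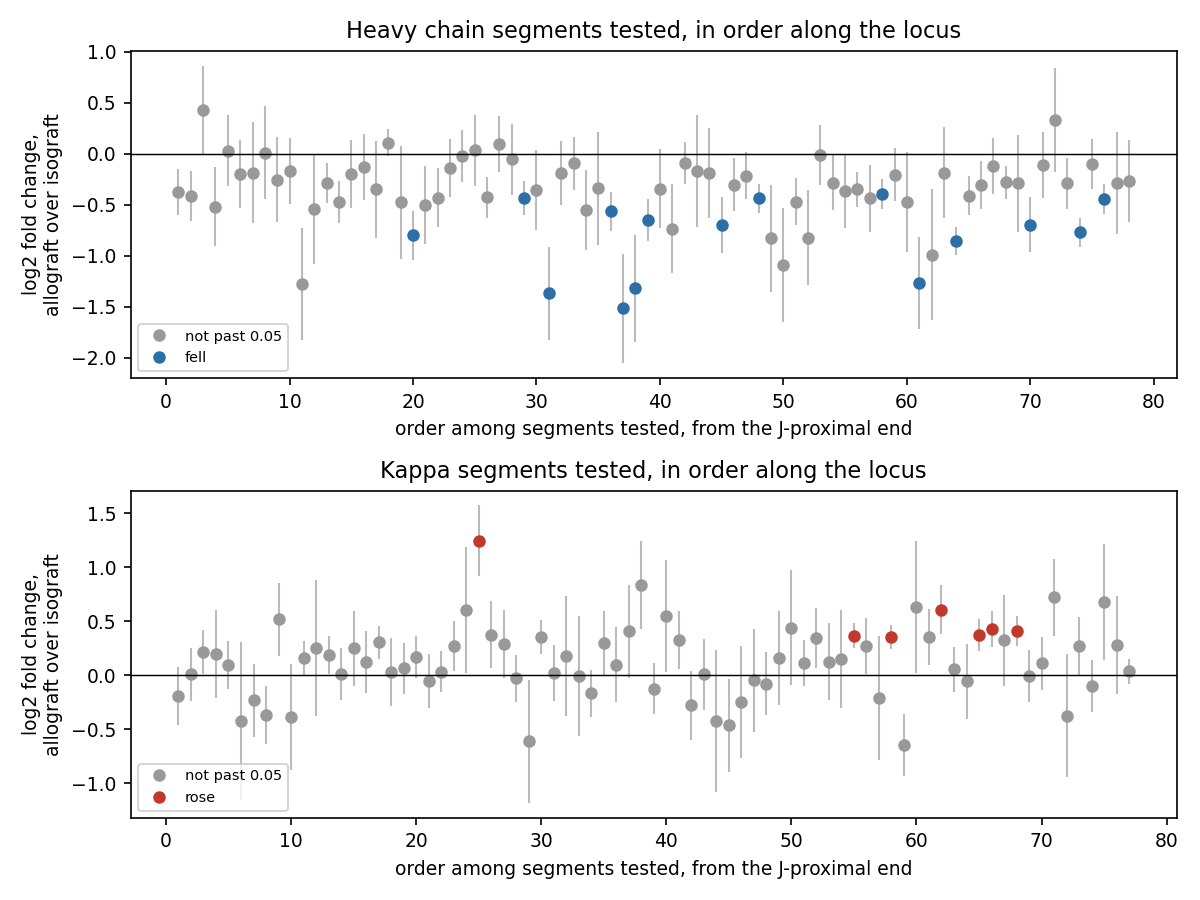
Log2 fold change (allograft over isograft) of each heavy and kappa segment tested, in order from the J-proximal end, with lines of 1 SE to each side and segments past an adjusted p of 0.05 in colour. Heavy segments lie mostly below 0 (71 of 78) and kappa segments mostly above (54 of 77) after TMM scaling; with total counts, which moves the median of all genes by -0.22, 1 kappa segment rises and 1 falls.

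Usage was spread over many segments in every library. The effective number of heavy segments (the exponential of the Shannon entropy of usage shares over 103 segments with at least 10 counts) was 56.6, 58.1 and 58.6 in allograft and 59.4, 58.0 and 54.3 in isograft libraries. The effective number of kappa segments was 46.0, 47.0 and 49.3 in allograft libraries, against 49.8, 50.2 and 50.4 in isograft libraries. The heavy values overlapped, and the kappa values were lower in every allograft library by a small margin. The 10 most used kappa segments took 50.4%, 49.9% and 47.2% of kappa usage in allograft and 46.4%, 46.0% and 45.2% in isograft libraries. No single segment dominated a library: the most used one took at most 6.04% of heavy and 9.45% of kappa usage in allograft libraries and at most 6.47% and 8.87% in isograft libraries.

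Usage was also compared between libraries. Across 103 heavy segments, log2 usage correlated between an allograft and an isograft library at 0.83 to 0.90, within allograft libraries at 0.82 to 0.86 and within isograft libraries at 0.85 to 0.91. Across 103 kappa segments the values were 0.85 to 0.93 between groups, 0.87 to 0.94 within allograft libraries and 0.88 within isograft libraries. Segments are not independent replicates and share library, length and mappability, so these values are a description.

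Markers of antibody-producing cells moved in both directions beside the segments. The calls on the lists stand beside 28.7% of all genes tested that rose and 29.1% that fell. Of 20 B cell identity genes, all tested, 11 fell and 5 rose, and the median log2 fold change was -0.26. Fcer2a, the low-affinity IgE receptor CD23, rose by 2.84 on the log2 scale, while Ralgps2 and Fcrla fell by 1.41 and 1.35. The plasma cell list, 14 of 15 tested, had 5 rises and 3 falls with a median of -0.03 and a sum of 1390 ± 49.1 CPM in allograft and 586.5 ± 5.80 CPM in isograft libraries (SD, n = 3 each). Irf4, a transcription factor also made by activated T cells, and Slamf7 rose by 2.58 and 2.36 and held most of that sum in allograft libraries: without these 2 genes, left out after their values were seen, the other 13 summed to 371.3 ± 11.5 CPM in allograft and 407.8 ± 8.38 CPM in isograft libraries. Sdc1, the surface marker syndecan-1, fell by 1.52. Of 18 T cell identity genes, 5 rose and 9 fell, with a median of -0.22; Cd4 and Cd247 fell by 1.57 and 1.35 and Cd5 rose by 1.38. Over the 9 marker lists together, 25 genes rose and 45 fell. With total counts 17 rose and 64 fell, under a scaling that moves the median log2 fold change of all genes tested by -0.22. The part of cell composition in the V segment values was not tested.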

How the data were processed

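The authors deposited whole-number counts per gene for each of 6 libraries, with no normalization. Per the file headers, read-pair fragments were counted over exons with featureCounts 1.6.0 from HISAT alignments (version not given in the sources used here). Those headers name the Ensembl 104 annotation on GRCm39, whereas GRCm38 and mm10 appear in the submitters' processing notes. GRCm39 coordinates are printed because the headers name that annotation. The GRCm39 interval of none of the 348 members overlaps its GRCm38 interval. Counting was done on the annotated intervals, so these hold all 80650 V counts by construction. The counts therefore cannot show which build the reads were aligned to. The recorded command names neither strandedness nor multi-mapped reads.

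Symbols came from the Ensembl IDs, with a match for 93.99% of genes, and 30 other V records without such a symbol (68 counts) were left out. Genes were kept by filterByExpr, scaled by TMM and compared with edgeR 4.0.16 (quasi-likelihood, robust, two-sided, R 4.3.3), with Benjamini-Hochberg adjustment over 14926 genes and a threshold of 0.05. Log2 fold changes are allograft minus isograft, and SE is the log2 fold change over the square root of F. The procedure was run on simulated data, with no result given here. Its accuracy for the V segments was not tested. Within a group, counts of library pairs differed by 10.5 to 22.4 chi-square per degree of freedom, above sampling noise.

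Named segments were the 6 heavy, 6 kappa and all lambda segments of highest CPM per kilobase, up to 6 rises and 6 falls past the threshold at 5 CPM or more, and the 5 most uneven; each of 9 marker lists gave up to 3 genes of smallest p. Members and lists were chosen with earlier results of these data known. Sequence identities come from GENCODE M21 transcripts and Biopython 1.88. The alternatives were RLE scaling, total counts, immunoglobulin genes left out of library sizes, DESeq2 1.42.0, limma-voom 3.58.1, non-robust estimation, no low-count filter, at least 5 CPM in 3 libraries, a replicate block, each library left out, and, for sums and usage, other units and at least 50 counts.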

Additional observations from a re-analysis of the deposited data

How the results depend on the processing

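With total counts, 1 segment rose and 28 fell (7 and 16 with TMM), 26 heavy segments fell (15), 1 kappa segment rose (7) and 1 fell (0); the log2 ratios of the sums were -0.58 for Ighv (-0.36), -0.0195 for Igkv (0.20, reversed) and -0.78 for Iglv (-0.56). These shifts follow from that scaling, which moves the median of all genes tested by -0.22. At 5 CPM in 3 libraries fewer segments are tested, and 3 rose and 7 fell, of which 3 kappa rises and 6 heavy falls. Leaving out each library in turn gave 1 to 8 rises and 10 to 16 falls over all segments, 9 to 14 heavy falls, 1 to 8 kappa rises and 0 to 1 kappa falls; the cause was not tested. Usage of segments with at least 50 counts gave effective numbers of 54.5 in allograft and 54.0 in isograft libraries for Ighv and 44.6 and 47.1 for Igkv, and shares of counts gave 49.5 for Igkv in isograft libraries. RLE scaling, DESeq2, limma-voom, non-robust estimation and leaving immunoglobulin genes out of library sizes kept all 23 calls, and no low-count filter kept 22.

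The replicate numbers showed no sign of pairing the libraries. Same-numbered libraries correlated at -0.06, 0.00 and -0.03 in their deviations from the group means, and differently numbered ones at -0.02 to 0.05. With 3 libraries per group a weak pairing could be missed. With the replicate number as a block, 5 segments rose and 15 fell, and 4064 of all genes rose and 4152 fell; on the marker lists 23 genes rose and 43 fell. Segments of about 1 CPM rest on few counts per library, and 190 segments were too low to test.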

Other observations

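Other gene lists tied to antibody genes were also measured. Beside each of them, 28.7% of all genes tested rose and 29.1% fell. Whether any list departed from these shares was not tested. Of 12 germinal centre B cell genes 4 rose and 4 fell, and the median log2 fold change was -0.34. Neil1 and Nuggc fell by 1.23 and 1.66 and Fas, a death receptor, rose by 0.89.

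Of 11 genes of V(D)J recombination and the surrogate light chain, 6 could be tested; 1 rose and 3 fell, with a median of -0.50. Dntt, which adds bases at the joining points, averaged 0.361 ± 0.173 CPM in allograft and 1.65 ± 0.494 CPM in isograft libraries and fell by 2.18 on the log2 scale (edgeR adjusted p = 0.00015). Dclre1c, the nuclease Artemis, rose by 0.99, and Prkdc fell by 0.91. Rag2, Igll1 and Vpreb2 had 0 counts in all 6 libraries.

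Of 10 factors of the octamer and immunoglobulin enhancers 3 rose and 4 fell (median -0.14); Irf4 and Irf8 rose by 2.58 and 1.86 and Ets1 fell by 1.32. Of 10 marginal zone and B1 cell genes 3 rose and 6 fell (median -0.25); Zbtb32 and Cd5 rose by 1.74 and 1.38 and Cd1d1 fell by 1.26. Of 13 myeloid genes 12 were tested, 1 rose and 3 fell (median -0.08); Cd68 rose by 0.54, and Lyz2 and Csf1r fell by 0.55 and 0.62. Summed myeloid levels were 97.4 ± 7.90 CPM in allograft and 114.9 ± 3.29 CPM in isograft libraries (SD, n = 3 each).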
